A study of Mus musculus with 8 samples.

Results

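Hmga2, Hmga1 and Igf2bp2 were followed in individual LT-HSC, the long-term stem cells of the blood, from aged mice, with the question of whether Hmga2 RNA stays higher in Dlk1+ cells once 10 doubtful cell barcodes are left out, and of which cells carry it. These are 3 of the 18174 gene rows in the deposited tables, picked by name because Hmga2 had already stood out in these data, so their Dlk1+ against Dlk1- values below are a description and carry no test. All cells came from the bone marrow of untreated wild-type male C57BL/6J mice of 18 months and were sorted as Lin-CD150+CD48-CD34-Kit+Sca1+, either Dlk1+ or Dlk1-. RNA was counted with CEL-Seq2, which tags the polyadenylated 3′ end of each RNA with a barcode for the cell and a random tag for the molecule (UMI), in 8 libraries of 96 wells each, 4 per group. Plate 5 held replicates 1 and 2 of each group, and plate 6 held replicates 3 and 4. Bones were pooled and no label ties a library to an animal, so p-values measure a spread between libraries that may be technical.

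Hmga2 and Hmga1 encode high mobility group AT-hook proteins, small chromatin proteins that bind the minor groove of AT-rich DNA and bend it. Hmga2 is abundant in fetal tissues, including fetal liver stem cells, and declines after birth. Lin28b blocks maturation of let-7 microRNAs in fetal cells, and let-7 represses Hmga2 through its 3′ UTR. Igf2bp2 encodes an RNA-binding protein that binds Igf2 and many other messenger RNAs, and it is a known target of Hmga2. Dlk1 encodes a membrane protein of the Notch ligand family, imprinted and mostly fetal.

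The let-7 seed and its matches are shown first because let-7 is the known repressor of Hmga2 and the same letters can be looked for in all 3 genes. The RefSeq table (GRCm38.p6) held 11 mature let-7 family names at 13 loci, and 10 of the names shared 1 seed (bases 2 to 8, in capitals), with let-7j as the exception.
mmu-let-7a-5p: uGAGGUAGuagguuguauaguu
mmu-let-7b-5p: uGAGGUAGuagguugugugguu
mmu-let-7g-5p: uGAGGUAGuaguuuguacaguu
mmu-miR-98-5p: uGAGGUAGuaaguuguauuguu
mmu-let-7j: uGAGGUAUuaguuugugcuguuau

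The complement of the shared seed, CTACCTC, was searched on the transcript strand of the longest annotated 3′ UTR of each gene in GENCODE M21 (GRCm38, the mm10 build that the submitters' processing notes name). Hmga2 (ENSMUSG00000056758.14, chr10:120361275-120476469, minus strand) held 4 matches in a 3′ UTR of 3014 bases. Of 2891 3′ UTRs within 25% of that length, 15.9% held at least 1 match and 0.138% held as many as Hmga2. Hmga1 (ENSMUSG00000046711.16, chr17:27556497-27563674, plus strand) held 1 match in 1183 bases, where 8.10% of 3′ UTRs of like length held 1 or more. Igf2bp2 (ENSMUSG00000033581.17, chr16:22059009-22163299, minus strand) also held 1 in 1784 bases, where the share was 11.5%. Over all 21020 genes with a 3′ UTR the share was 9.02%. Each match stands in capitals within 22 bases of its mRNA, all in the 3′ UTR.
Hmga2 match 1, chr10:120364224-120364245: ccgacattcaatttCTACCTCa
Hmga2 match 2, chr10:120362987-120363008: cccactcctcaataCTACCTCt
Hmga2 match 3, chr10:120362549-120362570: tgatttgcaaggaaCTACCTCc
Hmga2 match 4, chr10:120361691-120361712: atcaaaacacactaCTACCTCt
Hmga1 match 1, chr17:27563278-27563299: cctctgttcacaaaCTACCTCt
Igf2bp2 match 1, chr16:22059473-22059494: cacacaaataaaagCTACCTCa
A match is a run of letters and not a measured site, and the mature let-7 RNAs themselves were not measured here.

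Barcodes 1 to 96 of each Dlk1+ table and 97 to 192 of each Dlk1- table held the sorted cells, and a barcode counted as a cell from 1000 transcripts on. The 10 doubtful barcodes (17, 20 to 24 and 29 to 32) lie among the sorted cells only in the Dlk1+ tables, where they carried much haemoglobin RNA (5.88% of UMIs, against 0.0113% on the other sorted barcodes). Without them 541 cells remained, 220 Dlk1+ and 321 Dlk1-, in libraries of 26 to 96 cells and 39073 to 517559 transcripts. Dlk1+ replicate 3 stood apart, with 26 cells and a median of 1295.5 UMIs per cell, against medians of 3403 to 5521 in the other libraries. Levels are given in CPM, transcripts scaled to a library total of 1000000. A count of 3 transcripts corresponds to 76.8 CPM in Dlk1+ replicate 3, and to between 5.80 and 29.3 CPM elsewhere. All 14 hematopoietic stem cell markers were detected, and their summed level was 1817 to 3210 CPM in Dlk1+ and 2388 to 3139 CPM in Dlk1- libraries. Dlk1 RNA followed the sort, with means of 507 ± 146 CPM for Dlk1+ and 28.6 ± 23.9 CPM for Dlk1- (SD over 4 libraries).

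Hmga2 RNA was higher in Dlk1+ libraries without the 10 barcodes, on average 96.2 ± 90.6 CPM against 17.2 ± 12.6 CPM (SD, n = 4 each), a ratio of 5.60. In the Dlk1+ libraries, replicates 1 to 4, Hmga2 stood at 70.8, 48.8, 230.4 and 35.0 CPM, from 28, 5, 9 and 16 UMIs. The Dlk1- libraries gave 9.66, 8.68, 14.7 and 35.6 CPM, from 5, 2, 7 and 17 UMIs. Dlk1+ replicate 3 was the highest and the shallowest, and Dlk1- replicate 4 was the only library of its group near the Dlk1+ range. The groups overlapped in this last pair alone, since Dlk1+ replicate 4 lay just under Dlk1- replicate 4, and Dlk1+ was higher in 15 of the 16 pairs of libraries. Over all genes tested, 1.11% had every Dlk1+ library above every Dlk1- library, and 2.51% had a Dlk1+ mean at least 2-fold higher. The counting intervals are wide, from 105 to 437 CPM in Dlk1+ replicate 3 and from 20.02 to 56.9 CPM in Dlk1+ replicate 4 (exact Poisson, 95%, counting error only).

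**Figure D1:**
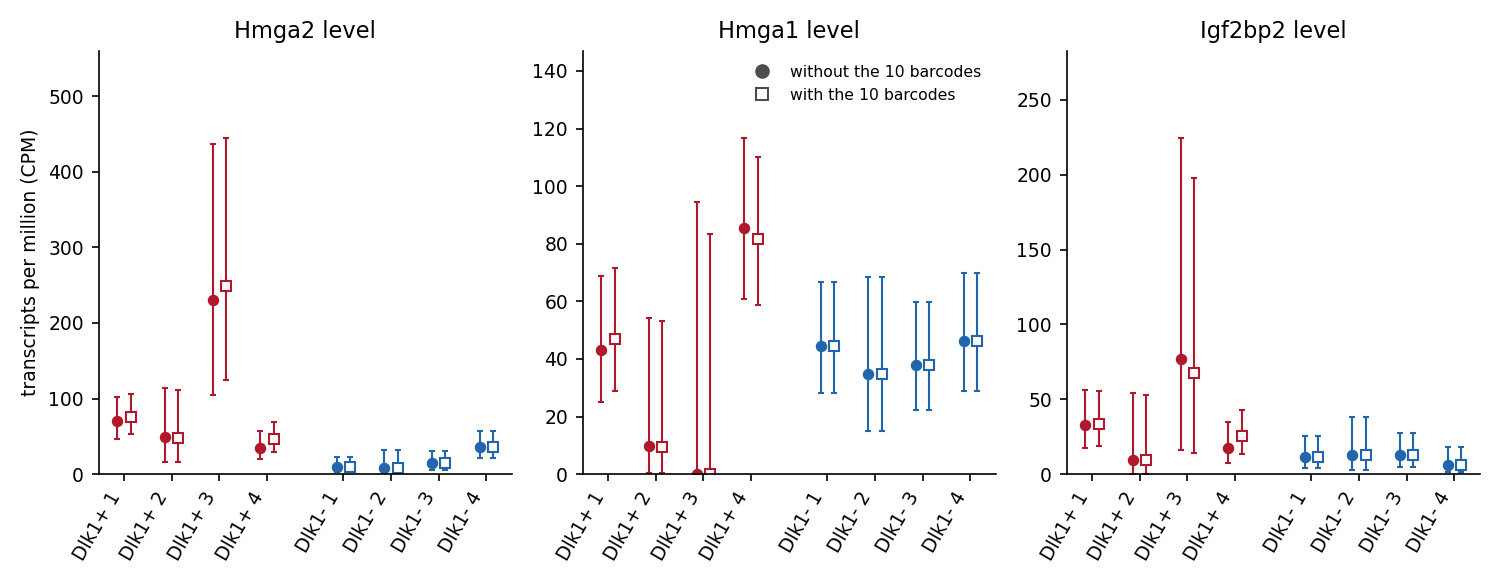
Level of Hmga2, Hmga1 and Igf2bp2 in each library in CPM (linear axes that start at 0 and differ between panels), red for Dlk1+ and blue for Dlk1-, filled circles without and open squares with the 10 barcodes, bars for the 95% Poisson counting interval. Hmga2 is highest in Dlk1+ replicate 3 at 230.4 CPM, and the 2 symbols of a library lie close together.

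With the 10 barcodes kept, the Hmga2 ratio was 6.09 in place of 5.60, so leaving them out lowered it little. The Dlk1+ mean was then 104.7 ± 96.8 CPM (SD, n = 4), and the groups no longer overlapped, because Dlk1+ replicate 4 rose from 35.0 to 46.6 CPM. Single libraries weighed more than the barcodes. Without Dlk1+ replicate 3 the ratio fell to 3.00, and without Dlk1- replicate 4 it rose to 8.73. Summing the UMIs of each group, which gives deep libraries their full weight, left 58 UMIs (60.7 per 1000000 UMIs) in Dlk1+ and 31 UMIs (18.8) in Dlk1- cells, a ratio of 3.23. Within plate 5 that ratio was 7.23, from 33 and 7 UMIs, and the ratio of mean CPM 6.52. Within plate 6 it was 1.99, from 25 and 24 UMIs, where Dlk1- replicate 4 alone gave 17, and the ratio of mean CPM was 5.27 with the shallow Dlk1+ replicate 3 in it. Hmga2 stayed higher in Dlk1+ under every choice of barcodes and libraries listed in the plot of its ratios.

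**Figure D2:**
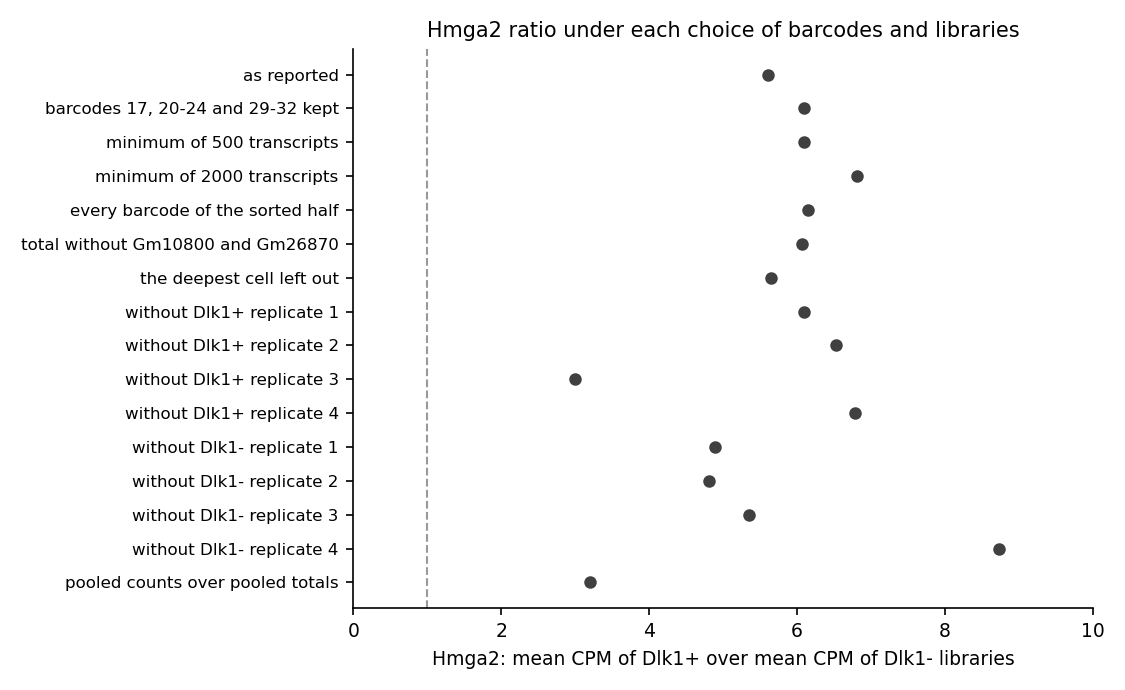
Ratio of the mean Hmga2 level in Dlk1+ libraries to that in Dlk1- libraries (linear axis, dashed line at 1), 1 point for each choice of barcodes, denominator or libraries. The lowest ratio, 3.00, is without Dlk1+ replicate 3, and the highest, 8.73, is without Dlk1- replicate 4.

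A single deep cell lowered the Hmga2 level of Dlk1+ replicate 4. Barcode 91 of Dlk1+ replicate 4 held 36327 UMIs, 8.07% of its library, and the next deepest cell of any library held 14443. It carried 1974 UMIs of the myeloid marker list, 43 of the stem cell list and no Dlk1 or Hmga2 UMI. Without it the summed myeloid level of the library went from 5138 to 472 CPM, and Hmga2 from 35.0 to 38.1 CPM, against 35.6 CPM in Dlk1- replicate 4. Since the cell held no Hmga2 UMI, leaving it out could only raise that level. Leaving this cell out was chosen after its values were seen, and no doublet caller was run.

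Cells with an Hmga2 UMI were more frequent in every Dlk1+ library than in any Dlk1- library. Carriers made up 24.4%, 18.5%, 23.1% and 14.8% of the cells in Dlk1+ replicates 1 to 4 (mean 20.2 ± 4.39, SD, n = 4). In Dlk1- replicates 1 to 4 they made up 3.13%, 5.56%, 5.26% and 12.8% (mean 6.68 ± 4.20). Of all genes tested, 0.212% had a share of cells with a UMI that was higher in every Dlk1+ library, and since the members were chosen on this contrast nothing is read from it. These shares varied less between Dlk1+ libraries than the CPM did. At full depth Dlk1+ replicate 3, which had the shallowest cells, did not stand apart. The 95% Wilson intervals of the closest libraries overlapped widely, from 8.68% to 24.1% in Dlk1+ replicate 4 and from 7.46% to 21% in Dlk1- replicate 4. Depth was also made equal by drawing 2000 UMIs from each cell. The shares were then 17.1%, 12.0%, 50.0% and 8.86% in Dlk1+ and 2.15%, 2.94%, 1.09% and 6.82% in Dlk1- libraries. The groups again did not overlap, as for 1.04% of all genes tested, but the 50.0% stands for 2 of only 4 cells in Dlk1+ replicate 3. At 1000 UMIs the closest libraries were 3.49% in Dlk1+ replicate 1 and 3.19% in Dlk1- replicate 4, from 3 cells each, and 1.43% of all genes tested did not overlap in this direction. Dlk1+ replicate 3 was the highest there at 19.2% (5 of 26 cells), against 3.49% to 11.1% in the other Dlk1+ libraries. Thinning to 2000 UMIs kept 190 Dlk1+ and 307 Dlk1- cells and left out 30 and 14. Without Dlk1+ replicate 3 the mean share at 2000 UMIs was 12.6% against 3.25%, in place of 22.0%.

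**Figure D3:**
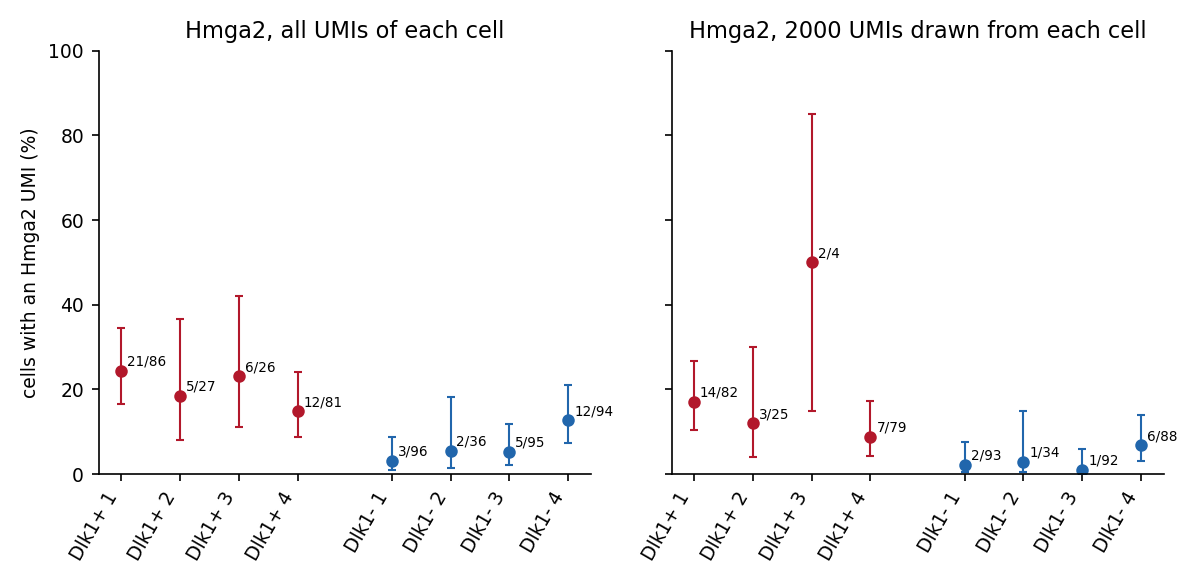
Share of cells with an Hmga2 UMI in each library, with all UMIs (left) and with 2000 UMIs drawn from each cell (right), red for Dlk1+ and blue for Dlk1-, bars for the 95% Wilson interval, and labels for carriers over cells. All Dlk1+ points lie above all Dlk1- points in both panels, and the highest point rests on 4 cells.

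The carriers were many cells with few UMIs each. Over both groups 66 of 541 cells carried Hmga2, 44 of them Dlk1+ and 22 Dlk1-. A single UMI was found in 45 of the 66, 2 UMIs in 19, and 3 UMIs in 2 cells. Carriers lay on barcodes from 6 to 95 in the Dlk1+ and from 97 to 192 in the Dlk1- libraries, spread over the range. In Dlk1+ libraries carriers were about as frequent among shallow as among deep cells: 21 of 109 cells below their library's median depth and 23 of 111 at or above it carried Hmga2. In Dlk1- libraries the counts were 8 of 160 and 14 of 161. Scaled to the UMIs of these cells alone, the Hmga2 level was higher in the shallow cells of every Dlk1+ library. Shallow cells stood at 95.2, 93.0, 342 and 54.6 CPM in Dlk1+ replicates 1 to 4, and deep cells at 66.2, 29.7, 168 and 26.3. In Dlk1- replicates 1 to 4 shallow cells stood at 22.5, 27.7, 12.4 and 23.4 CPM, and deep cells at 3.13, 0, 16.7 and 43.3. Replicates 3 and 4 there went the other way. These levels rest on few UMIs, and their differences were not tested. A haemoglobin UMI was found in 10 of 44 carriers and 34 of 176 other Dlk1+ cells, and a hepatocyte marker UMI in 4 and 18.

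**Figure D4:**
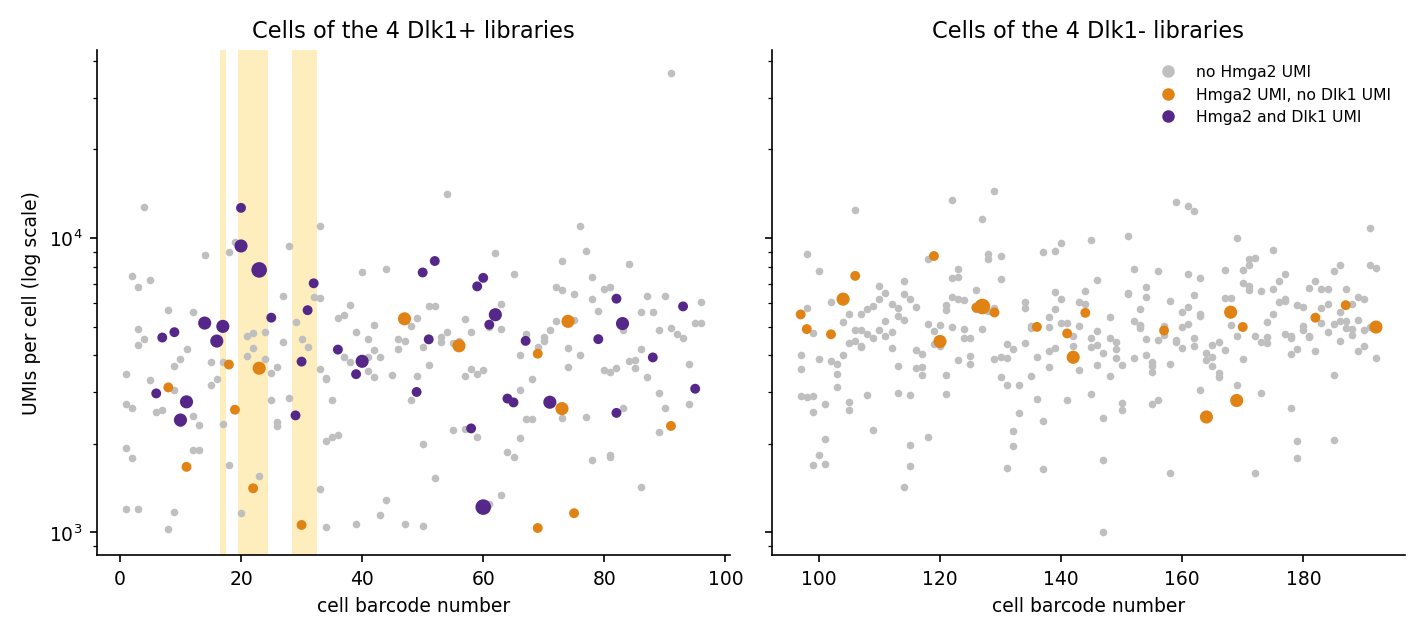
Each cell, those on the 10 barcodes included, by its barcode number and its UMIs (log axis), for the 4 Dlk1+ libraries (left) and the 4 Dlk1- libraries (right). Grey cells have no Hmga2 UMI, coloured cells have 1 or more (larger for more UMIs), purple where a Dlk1 UMI was also found and orange where none was, and yellow bands mark the 10 barcodes. Carriers are spread over the barcode range, and the Dlk1- panel has no purple cell.

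Inside the Dlk1+ libraries, Hmga2 was found more often beside Dlk1 RNA in 1 random draw of UMIs, and with little difference at full depth. This split was not repeated with another draw. At 2000 UMIs per cell, 19 of 110 cells with a Dlk1 UMI (17.3%) and 7 of 80 cells without one (8.75%) carried Hmga2. The share was higher with Dlk1 in replicate 1 (23.3% against 10.3%), in replicate 2 (20% against 0 of 10 cells) and in replicate 4 (11.8% against 3.57%). Dlk1+ replicate 3 had 4 cells at this depth, of which both Hmga2 carriers lacked Dlk1. With 3 usable libraries an exact sign-flip permutation test cannot go below 0.25, and the split is given as a description. In the Dlk1- libraries, 10 of 295 cells without a Dlk1 UMI (3.39%) carried Hmga2 at this depth, and this difference from the 7 of 80 was not tested. At full depth the difference was small, with Dlk1 RNA in 32 of 44 Hmga2 carriers (72.7%) and 121 of 176 other Dlk1+ cells (68.8%). It was found more often in carriers in Dlk1+ replicates 1, 2 and 4. Dlk1+ replicate 3 went the other way, with Dlk1 in 1 of 6 carriers and 8 of 20 other cells. None of the 22 Dlk1- carriers had a Dlk1 UMI, against 18 of 299 other Dlk1- cells (6.02%). Igf2bp2 showed a like split at 2000 UMIs, in 9 of 110 cells with and 2 of 80 cells without Dlk1, whereas Hmga1 was found in 14 of 110 (12.7%) and 9 of 80 (11.3%).

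**Figure D5:**
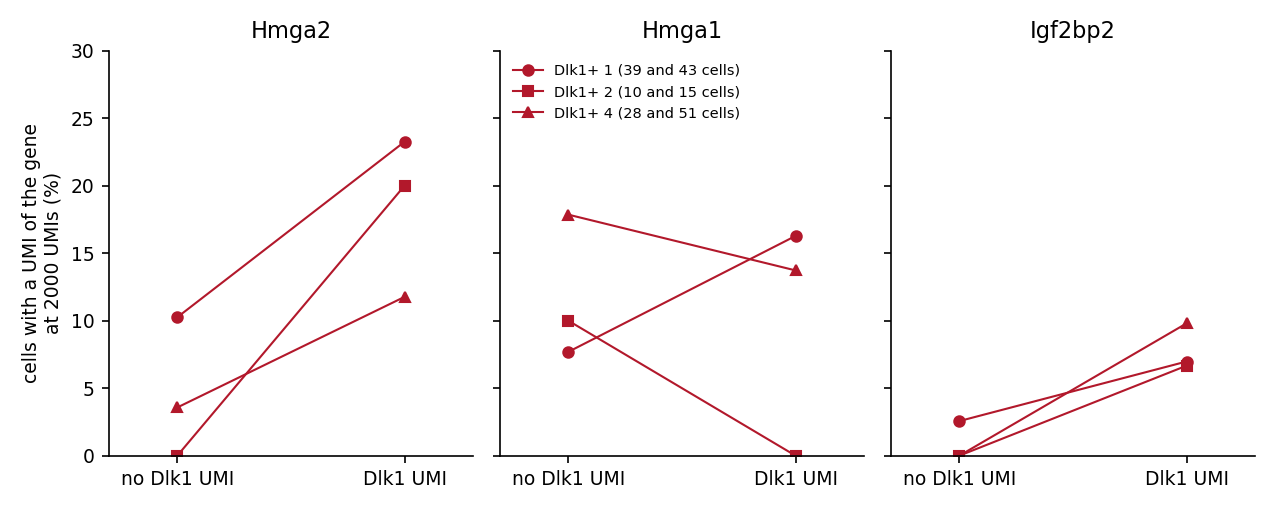
Share of cells with a UMI of Hmga2, Hmga1 or Igf2bp2 among cells without and with a Dlk1 UMI, at 2000 UMIs per cell, in the 3 Dlk1+ libraries with more than 4 such cells (1 line each, symbols for replicates 1, 2 and 4). In this 1 random draw the Hmga2 and Igf2bp2 lines rise in all 3 libraries, and the Hmga1 lines go both ways.

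Other features of the Hmga2 carriers varied between libraries. Gm10800 and Gm26870, 2 predicted genes that hold a large share of the UMIs in all libraries, took 40.0% of the UMIs of carriers in Dlk1+ replicate 3 and 17.2% in its other cells. In Dlk1+ replicate 2 these shares were 37.2% and 17.7%, while in replicates 1 and 4 they were 27.8% against 28.0% and 9.85% against 9.12%. Over the pooled Dlk1- cells the shares were 15.5% in carriers and 19.3% in others, but in Dlk1- replicate 2 they were 36.4% and 22.5%. Their part in the Hmga2 level was not tested, but with both genes taken out of the library totals the ratio was 6.06. Cell cycle genes (20 of S and 20 of G2M phase) gave 10.8 UMIs per 10000 in Dlk1+ carriers and 20.3 in other Dlk1+ cells, and 8.67 and 16.9 in the Dlk1- cells. The value of carriers was below that of other cells in every library except Dlk1- replicate 1 (26.8 against 18.9, with 3 carriers), and nearly equal in Dlk1+ replicate 1 (15.3 against 16.3). The other Dlk1+ cells include the deep cell on barcode 91, with 170 cell cycle UMIs.

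The 10 barcodes also carried Hmga2. In the Dlk1+ tables they held 16 Hmga2 UMIs among 120327, or 133 per 1000000 (76.0 to 216, exact Poisson 95%), where the other sorted barcodes held 70.1 (54.6 to 88.6). In the Dlk1- tables the same numbers belong to wells with no sorted cell, and they still held 25978 UMIs, 50.3% of them haemoglobin. Among these were 3 Hmga2 UMIs, or 115 per 1000000 (23.8 to 337), with 1 of Hmga1 and none of Igf2bp2. The other unused barcodes held 2 Hmga2 UMIs among 14093 in the Dlk1- tables and 1 among 9570 in the Dlk1+ tables. Each of these 6 UMIs lay on a barcode number on which at least 1 library of the other group had an Hmga2 UMI. Counting sorted barcodes of any depth, such numbers were 55 of 96 (57.3%) in Dlk1+ and 22 of 96 (22.9%) in Dlk1- tables. The intervals of the sorted Dlk1+ barcodes overlap each other, and the sorted Dlk1- barcodes held 18.7 per 1000000 (12.7 to 26.6). All these intervals pool 4 libraries and hold counting error only, not the spread between libraries. No difference between Dlk1+ and Dlk1- is read from them, since Hmga2 was chosen on that contrast. The unused barcodes of the Dlk1- tables stood above the 18.7 at 115 and 142, but on 3 and 2 UMIs. Their intervals, from 23.8 and 17.2 upward, overlap that of the sorted Dlk1- barcodes and are too wide to rank them. Whether RNA passed between libraries was not tested.

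Igf2bp2 was sparser and leaned the same way as Hmga2. Its level in Dlk1+ replicates 1 to 4 was 32.9, 9.76, 76.8 and 17.5 CPM, from 13, 1, 3 and 8 UMIs. In Dlk1- replicates 1 to 4 it was 11.6, 13.0, 12.6 and 6.29 CPM, from 6, 3, 6 and 3 UMIs. The means were 34.2 ± 29.95 and 10.9 ± 3.12 CPM (SD, n = 4 each), a ratio of 3.15, and Dlk1+ replicate 2 lay inside the Dlk1- range. The ratio was 3.13 with the 10 barcodes and 1.84 without Dlk1+ replicate 3, whose 76.8 CPM is 3 UMIs. Carriers were 23 of 220 Dlk1+ cells (10.5%) and 16 of 321 Dlk1- cells (4.98%), and 35 of these 39 cells had a single UMI. With 43 UMIs in all, Igf2bp2 did not pass the filter on low counts and has no fitted value.

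Hmga1 showed no such lean. Its Dlk1+ levels were 43.0, 9.76, 0 and 85.4 CPM in replicates 1 to 4, from 17, 1, 0 and 39 UMIs. The Dlk1- levels lay close together at 44.4, 34.7, 37.9 and 46.1 CPM, from 23, 8, 18 and 22 UMIs. The means were 34.5 ± 38.6 and 40.8 ± 5.39 CPM (SD, n = 4 each), and the direction was not stable: the ratio was 0.85 over all libraries, 1.13 without Dlk1+ replicate 3, 1.05 without Dlk1+ replicate 2 and 0.43 without Dlk1+ replicate 4. Over pooled UMIs the direction turned as well, with a ratio of 1.38 from 57 and 71 UMIs, 0.89 within plate 5 and 1.86 within plate 6. The count of 0 in Dlk1+ replicate 3 has an exact Poisson 95% upper limit of 94.4 CPM, and 3 counts there are 76.8 CPM. Over pooled cells carriers were about as frequent in both groups, 42 of 220 (19.1%) Dlk1+ and 59 of 321 (18.4%) Dlk1- cells. By library the share ran from 0% to 32.1% in Dlk1+ (mean 13.3%) and from 13.9% to 20.2% in Dlk1- (mean 17.7%). Dlk1+ replicate 4 alone held 26 of the 42 Dlk1+ carriers. The highest cell, with 8 UMIs, was the deep cell on barcode 91 of Dlk1+ replicate 4, without which that library stood at 73.9 CPM. Hmga1 has a near-identical copy in the genome, Hmga1b, so some of its reads may belong to either gene.

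Hmga2 ranked near the top of a fit of all genes and Hmga1 near the middle. In a limma-voom fit over library sums its fitted log2 fold change was 1.75 (SE 0.50), the third highest of 5666 genes, and 1.93 (SE 0.45) with the 10 barcodes. That of Hmga1 was -0.02 (SE 0.44), in the middle of all genes. Since Hmga2 was picked because it stood out in these data, its high rank was given in advance and nothing is read from it. Hmga2 also passed the filter on low counts mainly through its Dlk1+ libraries. In the same fit 0.0353% of genes were called higher (2 of 5666, Benjamini-Hochberg adjusted p under 0.05) and none lower, with 369 genes at an unadjusted p under 0.05, and with limma-trend 1 was called. The 2 called genes were Dlk1 (log2 fold change 4.80, SE 0.49, adjusted p = 5.01e-05), on whose protein the cells were sorted, and Timp3 (2.41, SE 0.38, adjusted p = 0.0133), named here after its values were seen. Timp3, an inhibitor of metalloproteinases, lost its call in 5 of 18 alternatives: without Dlk1+ replicate 2 (adjusted p = 0.134), without Dlk1- replicate 3 (0.132), with a minimum of 2000 transcripts (0.333), with the replicate block (0.223) and with limma-trend (0.147). Dlk1 was called in all 18 (highest adjusted p = 0.0273). Leaving out Dlk1+ replicate 4 gave 19 calls, 5 higher and 14 lower.

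Co-detection was sparse. At full depth, Hmga2 and Hmga1 were found together in 10 cells, where the carrier shares of each library give 11.8. Hmga2 and Igf2bp2 were found together in 10 cells against 5.81, and Hmga1 and Igf2bp2 in 14 against 7.23. These expected counts treat all cells of a library as equally deep, which they are not, so nothing is read from the excess. A single cell, in Dlk1+ replicate 4, carried all 3, and 173 of 541 cells carried at least 1. At 2000 UMIs per cell, Igf2bp2 was found in 9.49% ± 13.0 of Hmga1-detected and 2.77% ± 3.09 of undetected cells (SD over 6 libraries), higher in 3 and lower in 3 (exact sign-flip permutation test, two-sided p = 0.375, Benjamini-Hochberg adjusted 0.562 over 9 tests). Hmga2 was found in 3.33% ± 8.16 of Hmga1-detected and 6.86% ± 5.91 of undetected cells, lower in 5 of 6 libraries (exact p = 0.156, adjusted 0.45). Hmga2 was found in 31.7% ± 38.8 of Igf2bp2-detected and 7.78% ± 6.496 of undetected cells, higher in 2 of 3 libraries (exact p = 0.5, adjusted 0.643). The smallest p these designs allow before adjustment is 0.0313 with 6 libraries and 0.25 with 3, so the test over 3 libraries cannot pass, and those over 6 could pass only beside other small p-values.

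Cell cycle and stem cell scores were compared within 7 libraries, each cell at 2000 UMIs, between cells above and not above the library's 75th percentile. Igf2bp2 stood at 3.57 ± 9.45 per 1000000 UMIs in cycle-high cells and 21.2 ± 13.5 in the others, lower in 6 of 7 libraries (exact sign-flip permutation test, two-sided p = 0.0313, adjusted 0.281 over 9 tests, smallest possible p 0.0156). It did not pass after adjustment, and with the median as the cut the difference was 0.67 the other way. Hmga2 gave 21.1 ± 39.1 in cycle-high and 47.3 ± 35.1 in other cells, lower in 5 of 7 libraries (exact p = 0.156, adjusted 0.45). Hmga1 gave 72.9 ± 49.9 and 45.9 ± 27.8, higher in 5 of 7 (exact p = 0.25, adjusted 0.45). No member differed past the threshold by the summed stem cell markers (adjusted p 0.45 for Hmga2, 0.672 for Hmga1 and Igf2bp2, exact tests), and those differences changed sign with another random draw of UMIs.

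Genes that differ between Hmga1-detected and undetected cells were sought in 5 libraries with at least 5 cells of each kind, and limma-voom called none of 843 genes (0%), with 43 at an unadjusted p under 0.05. Limma-trend also called none, with 42. Without Dlk1- replicate 3, 1 gene was called. For Hmga2 only 3 libraries and for Igf2bp2 only 1 had enough cells of each kind, under the 4 required, so no such fit was made for either.

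Most genes of the fetal programme had too few UMIs to be tested. Of 11 genes of the fetal list, 9 were rows of the tables and only Dlk1 had enough counts to be tested. Lin28a, Lin28b, Igf2bp3 and Trim71, which act with or against let-7 in fetal and embryonic cells, had 1 UMI each over all 541 cells. Igf2, the growth factor whose RNA Igf2bp2 binds, had 25 UMIs in Dlk1+ and 11 in Dlk1- cells, at 16.8 ± 15.3 and 5.61 ± 3.84 CPM. Its Dlk1+ libraries ran from 0 to 35.4 CPM and overlapped the Dlk1- libraries at 0 to 8.41 CPM. Arid3a, a transcription factor, had 24 and 12 UMIs, and H19, a noncoding RNA beside Igf2, had 5 and 4. Plag1, an activator of Igf2, had 5 in each group.

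None of the listed let-7 target genes was called. Of 20 genes, 13 were tested with limma-voom, and the share called over all genes was 0.0353%. Of these 13, 6 held a CTACCTC match in the 3′ UTR searched and 7 held none, Myc and Ccnd2 among the latter. Of the 13, 6 had a fitted log2 fold change above 0, and their median was -0.02, beside -0.04 over all genes tested. Myc, a growth-promoting transcription factor, had the lowest value, -1.61 (SE 0.45, adjusted p = 0.56), at 12.6, 29.3, 25.6 and 131 CPM in Dlk1+ and 124, 148, 185 and 122 CPM in Dlk1- replicates 1 to 4. Dlk1+ replicate 4 alone lay in the Dlk1- range, and without it Myc was called lower (log2 fold change -2.63, adjusted p = 0.00865). Ccnd2, a cyclin of the G1 phase, stood at 700 ± 252 and 495 ± 102 CPM (log2 fold change 0.41, SE 0.24, adjusted p = 0.789).

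Other high mobility group genes had no call either. All 7 listed genes were tested, and their median log2 fold change was -0.05, with 3 above 0. Hmgn2, a nucleosome-binding protein, was lowest at -1.40 (SE 0.57, adjusted p = 0.694), with 47.6 ± 65.6 and 116 ± 43.3 CPM. Hmgb2, a DNA-bending protein of dividing cells, stood at -0.92 (SE 0.35, adjusted p = 0.694), with 113 ± 76.3 and 223 ± 69.8 CPM. In both genes Dlk1+ replicate 4 was the highest of its group.

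The insulin-like growth factor axis, on which Igf2bp2 acts, also held no called gene. Of 14 genes, 10 were tested, 4 with a log2 fold change above 0, and their median was -0.01. Igf1r, the main signalling receptor, stood at 307 ± 177 and 351 ± 103 CPM (log2 fold change -0.17, SE 0.32, adjusted p = 0.938). Igf2r, which clears Igf2, stood at 34.4 ± 16.4 and 41.0 ± 11.6 CPM (-0.01, SE 0.33, adjusted p = 0.999). Grb10, an imprinted adaptor that dampens insulin receptor signalling, was the only tested gene of these lists other than Dlk1 whose groups did not overlap, at 102 to 185 CPM in Dlk1+ and 81.2 to 92.2 CPM in Dlk1- libraries. Over all genes tested, 3.14% did not overlap in either direction, and Grb10 was not called (log2 fold change 0.50, SE 0.26, adjusted p = 0.763).

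The genes whose level across the 8 libraries was most like that of Hmga2 were Ralgps2 (Pearson r = 0.98 of log2 CPM), Snx17 (0.97) and Cyb5r1 (0.96). For Hmga1 they were Fbxo33 (0.98), Rcor3 (0.98) and Lbp (0.97), and for Igf2bp2 Ranbp1 (0.95), Rab22a (0.95) and Wnt4 (0.93). These points share the depth of their library, and for Hmga1 all 3 like genes were also at 0 CPM in the shallow Dlk1+ replicate 3, so the values are a description with no test.

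Markers of other cells were summed per library without the 10 barcodes. The haemoglobin list (3 of 4 genes detected, Hba-a2 at 0) summed to 48.8 to 140 CPM in Dlk1+ and 13.0 to 73.7 CPM in Dlk1- libraries, against up to 6706 CPM with the 10 barcodes. The hepatocyte list (10 of 14 detected, with Ttr, Serpina1b, Fgb and Rbp4 at 0) summed to 0 to 37.2 and 4.34 to 37.7 CPM, and the embryonic haemoglobins Hbb-y, Hba-x and Hbb-bh1 were all at 0. The erythroid list (10 of 12 detected, Alas2 and Ahsp at 0) gave 25.6 to 48.8 and 38.6 to 48.4 CPM. The stromal list (6 of 6 detected) gave 28.5 to 107 CPM in Dlk1+ and 7.73 to 30.4 CPM in Dlk1- libraries, and the part of these lists in the Hmga2 level was not tested. The megakaryocyte list (8 of 8 detected) gave 753 to 998 and 699 to 969 CPM, and the endothelial list (4 of 5 detected, Cdh5 at 0) 240 to 538 and 242 to 352 CPM. The myeloid list (7 of 8 detected, Lyz2 at 0) gave 0 to 5138 and 191 to 367 CPM, the highest value being that of the library with the deep cell. The T cell list (2 of 6 detected, Cd3e, Cd3d, Cd3g and Trbc1 at 0) gave 0 to 19.5 CPM in Dlk1+ and 6.31 to 26.04 CPM in Dlk1- libraries. The S phase list (20 of 20 detected) gave 938 to 1485 CPM in Dlk1+ and 818 to 1072 CPM in Dlk1- libraries, and the G2M list (20 of 20 detected) 487 to 1269 and 264 to 1186 CPM.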

How the data were processed

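Single cells were sequenced with mCEL-Seq2 in 8 libraries, 4 per group, per the labels. The authors aligned reads with BWA 0.6.2-r126 to mm10, per the submitters' processing notes, and the annotation and filters are not given in the sources used here. The deposited tables hold estimated transcript counts per gene and barcode, corrected for UMI collisions, and inverting that correction with a pool of 4096 gave whole UMIs (largest distance 3.64e-12). The members and gene lists were chosen with earlier results of these data known.

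Barcodes of the sorted side with at least 1000 transcripts were kept, without the 10 barcodes, and summed per library. Genes with a count of about 10 at the median depth in at least 4 libraries and a total of 15 (5666) were fitted with limma-voom (limma 3.58.1, R 4.3.3, TMM factors computed here, Benjamini-Hochberg FDR 0.05). edgeR and DESeq2 were planned but not used, because a unit check could not read the tables' numeric column names and the values were recorded without a count unit. For the Hmga1 split this departs from the planned test. Single values were tested with exact sign-flip permutations over libraries (Python 3.11.15). No table had an unmapped sample column. Tested on simulated data for the Dlk1 contrast, the fit recovered 13.4%, 79.1% and 77.3% of genes changed 2-, 4- and 8-fold, with 2 false calls. In that simulation every gene had the same fixed spread, which was not estimated from these libraries. Recovery in the real data was not measured.

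Levels are given by library total, shares with Wilson and levels with exact Poisson 95% intervals. Barcode numbers are reused in every library and mark wells, not shared cells. Same-numbered libraries were not treated as pairs. Named were the 3 members, list genes that are called or are ligands, receptors or family members, up to 5 genes per direction called in a detected-against-undetected fit, and the 3 genes most like each member. Ccnd2, Myc, Timp3 and Grb10 were singled out after their values were seen. The result of 1 marker list is not reported here.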

Additional observations from a re-analysis of the deposited data

Results flagged for a closer look

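Igf2bp2 was found in 25% of cells at 2000 UMIs in Dlk1+ replicate 3, against 4.00% to 6.33% in the other 3 Dlk1+ libraries. The gap to the next library was 0.889 of the group's range, above Dixon's 95% critical value for 4 libraries. The share is 1 of 4 cells. Among 18 groups of libraries checked this was the only such value. Chance flags about 1 group in 20, so 1 flag among 18 is about what chance gives. The groups share genes and libraries and are not independent.

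In the Dlk1- tables, 5 Hmga2 UMIs lay on barcodes that had no sorted cell, 3 of them on the 10 barcodes. All 5 were on barcode numbers where a Dlk1+ library had an Hmga2 UMI, as 57.3% of the 96 sorted Dlk1+ numbers did. How they got there was not tested.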

How the results depend on the processing

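The differences of Hmga2 and Igf2bp2 levels and shares between the groups stayed above 0 under all 15 level and 14 share alternatives, and moved by less than 1 SD. The Hmga2 difference ranged from 34.4 to 106.8 CPM, and that of Igf2bp2 from 9.16 to 32.8 CPM, while that of Hmga1 ranged from -23.2 to 15.6 CPM. The count of genes called between Dlk1+ and Dlk1- cells was 2, and it was 4 with the 10 barcodes kept, 1 with a minimum of 2000 transcripts, and 1 with limma-trend, which was added after seeing the data. Leaving out 1 library gave 1 (without Dlk1+ replicate 2 or Dlk1- replicate 3) to 19 (without Dlk1+ replicate 4). With the replicate number as a block it was 1. Whether same-numbered libraries are pairs was not settled. The correlations of their deviations were low, 0.037 to 0.064, but each was the highest for its library. Libraries with different numbers gave -0.042 to 0.0045. Hmga1-detected against undetected cells gave 0 calls, 0 to 1 when 1 library was left out, and 6736 of 14856 genes with no filter on low counts. Differences that changed sign were, per 1000000 UMIs by stem cell score, Igf2bp2 at 30.1 (1000 UMIs), 13.4 (another random draw) and 8.49 (median as the cut), and with another draw Hmga2 at 16.1 and Hmga1 at 21.2. By cycle score they were Hmga1 at -0.0533 with another draw and Igf2bp2 at 0.674 with the median as the cut. Hmga2 in cells with against without Igf2bp2 went to -3.61 percentage points at 1000 UMIs, from 23.9. The cause of these changes was not tested. The planned edgeR and DESeq2 fits were not run, nor were the Hmga2 and Igf2bp2 splits or the Hmga1 split with another draw, which had fewer than 4 libraries.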
